A study of Homo sapiens with 12 samples.

Results

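The genes described here are NRF2 and the antioxidant genes it is known to control, 9 genes taken by symbol from the 57820 gene IDs of the series. NFE2L2 encodes NRF2, a transcription factor, and KEAP1 encodes the adaptor through which NRF2 is marked for degradation. GCLC, GCLM and SLC7A11 serve glutathione synthesis, TXNRD1 and SRXN1 the thioredoxin and peroxiredoxin system, HMOX1 heme breakdown, and ME1 the supply of NADPH. Each of the 9 symbols matched 1 gene ID, and all 9 genes passed the filter on low counts that left 16999 genes to test. The genes were chosen by name.

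Poly(A) RNA of AsPC-1 cells, an established human pancreatic cancer line, was sequenced in 12 libraries, which form 4 groups of 3 (replicates A, B and C). Cells were transfected with scrambled siRNA, called siControl, or with siARNT, which targets ARNT, and were then kept at 21% O2 (normoxia) or moved to 1% O2 for 24 h (hypoxia), with RNA taken 48 h after transfection in each group. The 4 groups thus cross both siRNAs with both oxygen levels (normoxia siControl, hypoxia siControl, normoxia siARNT, hypoxia siARNT), all in the same line with no other allele or agent named. The series was made to study transcript forms that depend on HIF, the hypoxia-inducible factor, of which ARNT is the constant partner subunit. Transfected wells, 3 for each siRNA, were divided between the oxygen levels on the following day. The main tests take the 12 libraries as separate and do not use this division. Their p-values thus measure the spread between libraries from these wells and not between lines. The sequence of the siRNA, and whether it was 1 duplex or a pool, is not given in the sources used here.

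In cells at rest, NRF2 is bound by KEAP1 and degraded through a CUL3 and RBX1 ubiquitin ligase. When electrophiles or oxidants modify KEAP1, NRF2 builds up, pairs with a small MAF protein and binds antioxidant response elements, where BACH1 competes with it as a repressor. The pathway is regulated largely at the level of NRF2 protein, and it is known for raising glutathione, thioredoxin and NADPH capacity in pancreatic cancer cells. Protein was not measured here.

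Libraries held 38.53 to 84.34 M reads assigned to genes. ARNT stood between 60.7 and 72.2 CPM (assigned reads scaled to 1 M per library, with TMM factors) in the 6 siControl libraries and between 12.8 and 16.0 CPM in the 6 siARNT libraries. Of 9 markers of ductal epithelium, 8 were above 10 CPM in every library, with a summed level of 5940 to 10000 CPM. All 4 acinar, 3 endocrine and 4 immune markers and both matched endothelial markers were under 1 CPM in every library, as were 3 of 4 fibroblast markers, and the fibroblast markers summed to 335 to 593 CPM, nearly all of it LUM. The slope of library level on gene GC content differed between libraries: it was 0.415 (log2 per 10 points of GC) in normoxia siARNT B and 0.235 in hypoxia siARNT C, against -0.206 to 0.119 in the other 10. In such bulk libraries, fewer cells expressing a gene and less RNA per cell cannot be told apart.

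The promoters of the genes that the results turn on are printed here because 3 of these genes were lower together with siARNT (NFE2L2, GCLC and TXNRD1), while another pair was lower at 1% O2 in siControl (GCLM and ME1). RefSeq windows (GRCh38.p14, 250 bases before to 50 after a start) were found for 7 of the 9 genes, 10 windows in all. No window was found for SLC7A11, which was also lower at 1% O2 in siControl, or for HMOX1, which was higher there. Each line gives the 250 bases before the start, read 5′ to 3′ on the strand of the gene. Capitals mark the core of the antioxidant response element, TGACNNNGC on either strand, where the whole match lies before the start. NFE2L2 has 2 windows, of which the first is printed, and both windows of TXNRD1 are printed.
NFE2L2, chr2:177264132-177264381, minus strand: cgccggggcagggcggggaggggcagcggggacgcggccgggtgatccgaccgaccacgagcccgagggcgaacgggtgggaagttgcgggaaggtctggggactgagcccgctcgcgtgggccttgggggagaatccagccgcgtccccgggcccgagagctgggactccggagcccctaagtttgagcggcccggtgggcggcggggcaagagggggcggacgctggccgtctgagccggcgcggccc
GCLC, chr6:53545102-53545351, minus strand: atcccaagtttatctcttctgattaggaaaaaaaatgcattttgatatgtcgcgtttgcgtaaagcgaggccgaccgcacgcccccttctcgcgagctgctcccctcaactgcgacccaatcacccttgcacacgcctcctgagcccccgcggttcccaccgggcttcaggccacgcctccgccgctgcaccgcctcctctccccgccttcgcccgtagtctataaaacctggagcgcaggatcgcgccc
TXNRD1, chr12:104215529-104215778, plus strand: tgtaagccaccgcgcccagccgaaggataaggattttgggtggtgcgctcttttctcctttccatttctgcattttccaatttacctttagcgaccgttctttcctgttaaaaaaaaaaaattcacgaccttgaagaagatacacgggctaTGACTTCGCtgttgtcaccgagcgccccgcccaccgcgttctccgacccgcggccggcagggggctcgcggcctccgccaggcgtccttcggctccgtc
TXNRD1, chr12:104286782-104287031, plus strand: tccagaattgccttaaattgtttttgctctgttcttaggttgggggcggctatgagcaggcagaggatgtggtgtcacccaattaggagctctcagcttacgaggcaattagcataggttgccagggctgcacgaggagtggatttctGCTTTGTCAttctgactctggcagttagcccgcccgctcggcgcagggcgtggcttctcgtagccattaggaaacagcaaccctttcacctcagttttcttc
GCLM, chr1:93909431-93909680, minus strand: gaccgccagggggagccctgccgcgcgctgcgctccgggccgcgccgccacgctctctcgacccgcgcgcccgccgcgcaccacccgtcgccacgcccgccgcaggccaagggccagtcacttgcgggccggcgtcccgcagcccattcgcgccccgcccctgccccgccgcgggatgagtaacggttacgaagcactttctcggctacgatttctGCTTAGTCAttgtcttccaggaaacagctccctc
ME1, chr6:83431052-83431301, minus strand: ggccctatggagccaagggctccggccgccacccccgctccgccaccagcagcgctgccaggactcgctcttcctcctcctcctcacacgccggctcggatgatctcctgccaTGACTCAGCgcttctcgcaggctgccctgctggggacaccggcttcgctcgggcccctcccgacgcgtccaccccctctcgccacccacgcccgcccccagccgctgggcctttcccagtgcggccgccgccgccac

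The core TGACNNNGC was found in 5 of the 10 windows, in 4 genes, and in 13.3% of all 35116 RefSeq windows of 300 bases. In GCLM the match was GCTTAGTCA at -34 to -26, counted from the start with 1 as the first transcribed base. TXNRD1 held TGACTTCGC at -99 to -91 and GCTCCGTCA at -8 to 1 in its first window and GCTTTGTCA at -102 to -94 in its second. ME1 held TGACTCAGC at -137 to -129, whose first 7 letters are also the only match among the members to the AP-1 motif TGANTCA (7.7% of all windows), and GCACCGTCA at 12 to 20. The second window of KEAP1 held TGACACGGC at -54 to -46 and GCTTAGTCA at -31 to -23. The hypoxia response element core ACGTG on either strand was in none of the 10 windows and in 21.4% of all windows. The 10 windows do not cover HMOX1 and SLC7A11. These are matches of letters, and none was found in the windows of NFE2L2, GCLC and SRXN1 for any of the 3 motifs.

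Levels differed widely between the genes. In normoxia siControl, per kb of exon, TXNRD1 stood at 295 ± 12.6 CPM per kb (SD, n = 3), NFE2L2 at 43.1 ± 1.73, GCLC at 34.4 ± 1.91 and SLC7A11 at 27.4 ± 1.82. Below these came ME1 at 10.0 ± 0.578, KEAP1 at 6.47 ± 0.521, GCLM at 4.47 ± 0.393, HMOX1 at 1.42 ± 0.142 and SRXN1 at 0.142 ± 0.0324 CPM per kb. Each gene in this order stood apart from the next by more than the sum of their SDs.

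**Figure D1:**
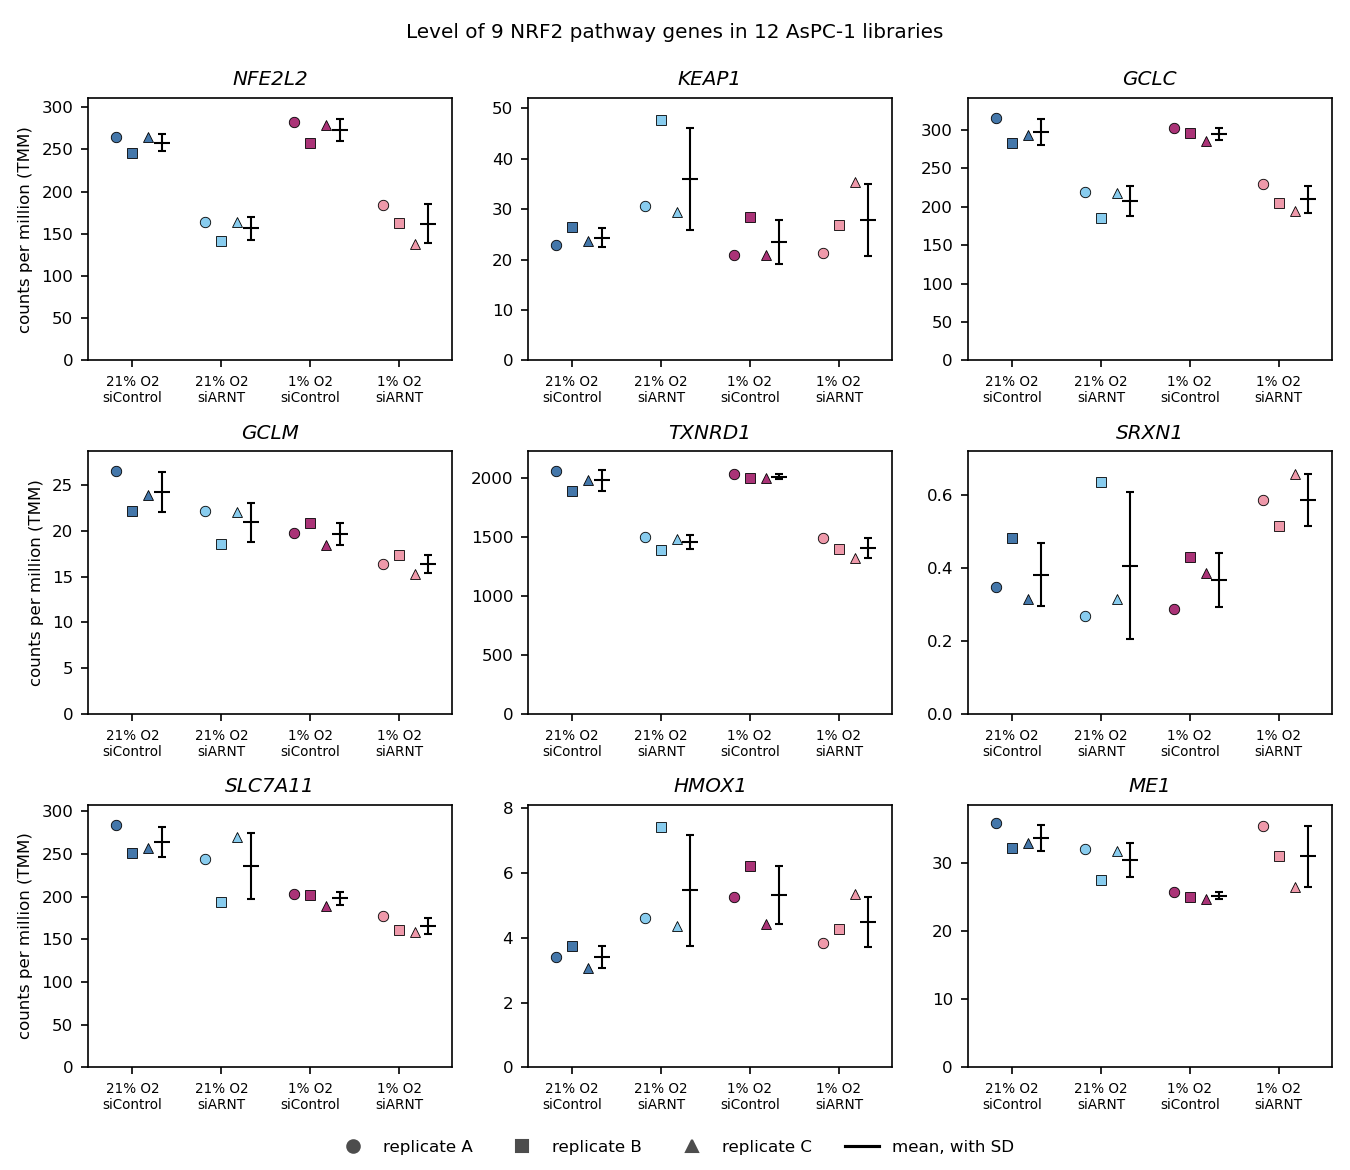
Level of the 9 genes (CPM after TMM scaling, linear axes from 0) in each of 12 libraries, by group on the x axis; symbols are replicates A, B and C, and the bar beside them is the mean with the SD (n = 3). NFE2L2, GCLC and TXNRD1 are lower in the siARNT libraries than in the siControl libraries at both oxygen levels, while KEAP1, HMOX1 and SRXN1 reach their highest or second highest value in normoxia siARNT replicate B.

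NFE2L2 (ENSG00000116044.11, chr2:177227595-177392697, minus strand, GRCh38), which encodes NRF2 itself, fell with siARNT at both oxygen levels. In replicates A, B and C it stood at 264, 246 and 264 CPM in normoxia siControl, 164, 141 and 164 in normoxia siARNT, 282, 258 and 279 in hypoxia siControl and 184, 163 and 138 in hypoxia siARNT. All 6 siARNT libraries were thus below all 6 siControl libraries, and the 2 oxygen levels overlapped within each siRNA. By edgeR's quasi-likelihood test with Benjamini-Hochberg adjustment over all genes, which gives all p-values for genes here, NFE2L2 was 1.65-fold lower with siARNT at 21% O2 (log2 fold change -0.72, SE 0.098, adjusted p 0.000514). At 1% O2 it was 1.69-fold lower (-0.76, SE 0.098, adjusted p 0.000133), in other libraries but from the same transfected wells, which were divided between the oxygen levels. With oxygen, the log2 fold change was 0.08 in siControl (95% interval -0.13 to 0.29, adjusted p 0.586) and 0.05 in siARNT (-0.17 to 0.26, adjusted p 0.807). The difference between those responses, the interaction, was -0.04 (SE 0.138, adjusted p 0.899). With the GC correction and the replicate letter as a block together, NFE2L2 was 0.15 with hypoxia in siControl (adjusted p 0.0349).

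KEAP1 (ENSG00000079999.9, chr19:10486120-10503741, minus strand), the gene of the adaptor that holds NRF2 down, did not pass the threshold in any comparison. It stood at 22.8, 26.5 and 23.7 CPM in normoxia siControl, 30.7, 47.7 and 29.5 in normoxia siARNT, 20.9, 28.5 and 21.0 in hypoxia siControl and 21.2, 26.9 and 35.3 in hypoxia siARNT. The 3 normoxia siARNT libraries were above the 3 normoxia siControl libraries, whereas the groups at 1% O2 overlapped. The log2 fold change with siARNT at 21% O2 was 0.56 (SE 0.216, adjusted p 0.0818). With the replicate letter as a block it was 0.54 with an adjusted p of 0.0426, and DESeq2 gave 0.56 with an adjusted p of 0.0333. KEAP1 has 60.3% GC in its longest transcript, and its highest values, 47.7 and 35.3 CPM, are those of the libraries with the steepest GC slopes. Without normoxia siARNT B the change at 21% O2 was 0.30 (adjusted p 0.305), and with a GC correction per library it was 0.07 (adjusted p 0.285). The same correction gave KEAP1 -0.24 with hypoxia in siControl (adjusted p 0.00087), -0.16 with hypoxia in siARNT (adjusted p 0.0277) and 0.15 with siARNT at 1% O2 (adjusted p 0.0196). At 1% O2 its log2 fold change with siARNT was 0.24 (95% interval -0.23 to 0.72, adjusted p 0.449).

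**Figure D2:**
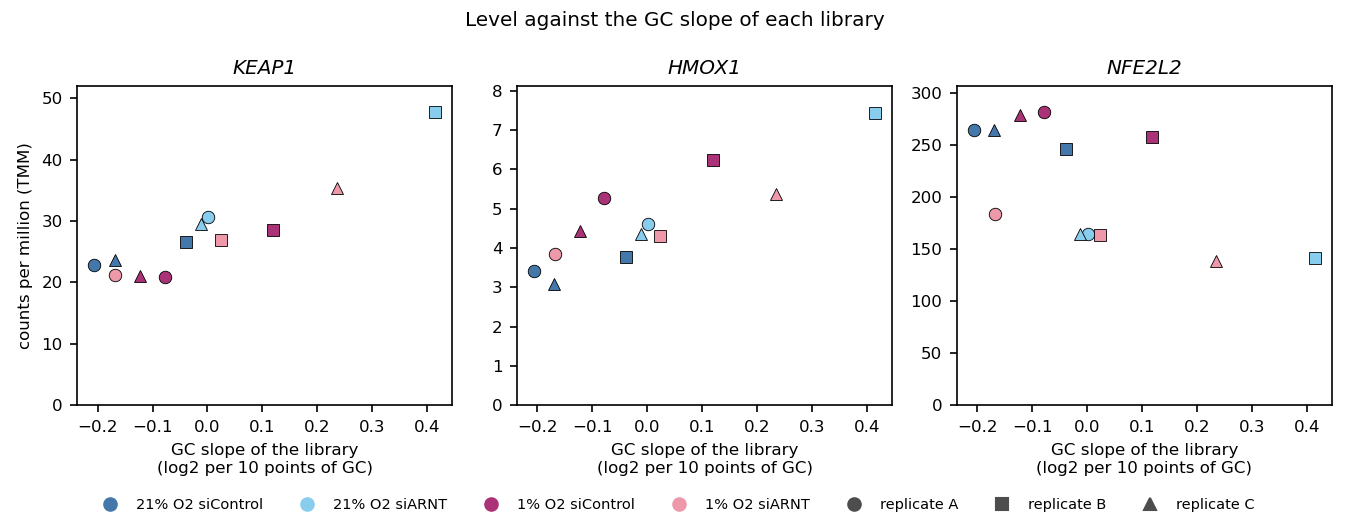
Level in CPM (y axis, linear from 0) of KEAP1, HMOX1 and NFE2L2 against the GC slope of each of the 12 libraries (x axis, log2 per 10 points of GC); colours are groups and symbols replicates. The library with the slope of 0.415, normoxia siARNT B, holds the highest KEAP1 and HMOX1 level, and the siARNT libraries of NFE2L2 lie below the siControl libraries along the range of slopes.

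Among the genes of glutathione synthesis, GCLC fell with siARNT, while SLC7A11 and GCLM fell at 1% O2. GCLC (ENSG00000001084.6, chr6:53497341-53616970, minus strand) encodes the catalytic subunit of glutamate-cysteine ligase, the rate-limiting enzyme of the route. It stood at 316, 283 and 293 CPM in normoxia siControl, 219, 185 and 218 in normoxia siARNT, 302, 296 and 286 in hypoxia siControl and 229, 205 and 195 in hypoxia siARNT. Again the 6 siARNT libraries lay below the 6 siControl libraries. GCLC was 1.44-fold lower at 21% O2 (log2 fold change -0.52, SE 0.081, adjusted p 0.00122) and 1.40-fold lower at 1% O2 (-0.49, SE 0.081, adjusted p 0.00079). Oxygen moved GCLC by -0.02 in siControl (95% interval -0.19 to 0.16, adjusted p 0.913) and by 0.02 in siARNT (-0.16 to 0.19, adjusted p 0.916).

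GCLM (ENSG00000023909.5, chr1:93885205-93909456, minus strand) encodes the modifier subunit of the same ligase. It stood at 26.5, 22.2 and 23.9 CPM in normoxia siControl, 22.2, 18.5 and 22.0 in normoxia siARNT, 19.8, 20.8 and 18.4 in hypoxia siControl and 16.4, 17.3 and 15.3 in hypoxia siARNT. The hypoxia libraries were below the normoxia libraries within each siRNA. GCLM fell 1.23-fold with hypoxia in siControl (log2 fold change -0.30, SE 0.097, adjusted p 0.0398), and its change in siARNT was -0.36 (SE 0.097, adjusted p 0.0634). The call in siControl was lost in 7 of 12 fits that left out 1 library (adjusted p 0.0525 to 0.199). These left out normoxia siControl A or C, hypoxia siControl A, B or C, or hypoxia siARNT A or B. The call was also lost with RLE scaling (adjusted p 0.0514), no filter on low counts (0.104) or the well as a block (0.0857). That block takes libraries of 1 siRNA with the same letter as 1 well, which the labels do not state. In siARNT DESeq2 called the change (-0.35, adjusted p 0.0392), as did the GC correction (-0.37, adjusted p 0.00227). The fit without normoxia siARNT B called it too (-0.43, adjusted p 0.0319). With siARNT its log2 fold change was -0.21 at 21% O2 (adjusted p 0.126) and -0.27 at 1% O2 (adjusted p 0.0564), both short of the threshold. At 1% O2 GCLM passed with the GC correction (-0.21, adjusted p 0.0276) and without normoxia siARNT B (-0.27, adjusted p 0.0274).

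SLC7A11 (ENSG00000151012.9, chr4:138164097-138242349, minus strand) encodes the transporter that brings in cystine, the source of cysteine for glutathione. It stood at 284, 251 and 257 CPM in normoxia siControl, 244, 194 and 270 in normoxia siARNT, 203, 202 and 189 in hypoxia siControl and 177, 161 and 159 in hypoxia siARNT. The hypoxia libraries were again below the normoxia libraries within each siRNA. SLC7A11 fell with hypoxia 1.33-fold in siControl (log2 fold change -0.42, SE 0.104, adjusted p 0.0114) and 1.43-fold in siARNT (-0.51, SE 0.104, adjusted p 0.0241), with an interaction of -0.09 (SE 0.146, adjusted p 0.729). Without normoxia siControl A the change in siControl was -0.35 (adjusted p 0.064). The call in siARNT was lost without any 1 of normoxia siControl C, normoxia siARNT A or C, or hypoxia siARNT A, B or C (adjusted p 0.0518 to 0.0927), and the value stayed between -0.54 and -0.40 in those fits. It was also lost with the well as a block (-0.50, adjusted p 0.0542) and with only the libraries compared (-0.50, adjusted p 0.186). With siARNT, SLC7A11 changed by -0.16 at 21% O2 (adjusted p 0.264) and -0.26 at 1% O2 (adjusted p 0.0851). At 1% O2 it passed with no filter on low counts (-0.26, adjusted p 0.0446) and with the GC correction (-0.18, adjusted p 0.00462). It also passed there with only the libraries compared (-0.23, adjusted p 0.0283) and without normoxia siARNT B (-0.25, adjusted p 0.015).

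In the thioredoxin and peroxiredoxin system, TXNRD1 fell with siARNT and SRXN1 was too low for a firm value. TXNRD1 (ENSG00000198431.11, chr12:104215779-104350305, plus strand) encodes cytosolic thioredoxin reductase, which uses NADPH to keep thioredoxin reduced. It stood at 2060, 1890 and 1980 CPM in normoxia siControl, 1500, 1390 and 1480 in normoxia siARNT, 2030, 2000 and 2000 in hypoxia siControl and 1490, 1400 and 1320 in hypoxia siARNT. Every siARNT library was below every siControl library. TXNRD1 was 1.36-fold lower at 21% O2 (log2 fold change -0.44, SE 0.059, adjusted p 0.000465) and 1.43-fold lower at 1% O2 (-0.52, SE 0.059, adjusted p 5.69e-05). The change with oxygen was 0.02 in siControl (95% interval -0.11 to 0.15, adjusted p 0.812) and -0.05 in siARNT (-0.18 to 0.08, adjusted p 0.664). With the GC correction it was 0.10 in siControl (adjusted p 0.0446), and the interaction was -0.17 (adjusted p 0.028).

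SRXN1 (ENSG00000271303.1, chr20:646615-653370, minus strand) encodes sulfiredoxin, which repairs overoxidised peroxiredoxins. It held 16 to 37 reads per library, or 0.349, 0.481 and 0.316 CPM in normoxia siControl, 0.269, 0.637 and 0.314 in normoxia siARNT, 0.287, 0.430 and 0.386 in hypoxia siControl and 0.586, 0.515 and 0.657 in hypoxia siARNT. The hypoxia siARNT libraries were above the hypoxia siControl libraries, and the other groups overlapped. The log2 fold change with siARNT at 1% O2 was 0.69 (SE 0.328, adjusted p 0.14). Without normoxia siARNT B it was 0.70 (adjusted p 0.0419). In the GENCODE 29 annotation, 2292 of its 2698 exon bases (85.0%) lie on the same strand in exons of a readthrough gene, AL121758.1, which held 0 reads in all 12 libraries. A counter that leaves out reads shared by 2 genes would drop reads there, so the SRXN1 level is uncertain. To a lesser extent this holds for 2 other members. NFE2L2 shares 1054 of 5979 exon bases (17.6%) on the same strand with AC019080.1, and GCLC shares 529 of 8646 (6.1%) with AL033397.1.

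HMOX1 and ME1 changed with hypoxia in siControl in opposite directions, and had the lowest unadjusted p of the members for the interaction, which did not pass the threshold. HMOX1 (ENSG00000100292.12, chr22:35380361-35394214, plus strand) encodes heme oxygenase 1, which opens the heme ring and is a target of both NRF2 and BACH1. It stood at 3.40, 3.76 and 3.08 CPM in normoxia siControl, 4.61, 7.44 and 4.36 in normoxia siARNT, 5.27, 6.23 and 4.44 in hypoxia siControl and 3.84, 4.29 and 5.36 in hypoxia siARNT. The 3 normoxia siControl libraries were the lowest of all 12. HMOX1 rose 1.56-fold with hypoxia in siControl (log2 fold change 0.64, SE 0.213, adjusted p 0.0459) and 1.60-fold with siARNT at 21% O2 (0.68, SE 0.212, adjusted p 0.0426), and both comparisons use the same normoxia siControl libraries. In siARNT the change with hypoxia was -0.28 (adjusted p 0.472), and at 1% O2 the change with siARNT was -0.24 (adjusted p 0.432). The interaction was -0.92 (SE 0.3, adjusted p 0.107).

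Both HMOX1 calls were lost in 6 of the 12 fits without 1 library. The rise with hypoxia lost its call without any 1 of normoxia siControl A, B or C, hypoxia siControl A or B, or hypoxia siARNT B (adjusted p 0.0655 to 0.146), with values of 0.53 to 0.71 in those fits, and with total count scaling (0.62, adjusted p 0.063). It held with DESeq2 (0.65, adjusted p 0.0149), the replicate block (0.63, adjusted p 0.0252) and the GC correction (0.51, adjusted p 0.000255). The rise with siARNT lost it without any 1 of normoxia siControl A, B or C, normoxia siARNT B, hypoxia siControl A or hypoxia siARNT B (adjusted p 0.0623 to 0.158), and with only the libraries compared (0.67, adjusted p 0.0727). Without normoxia siARNT B the value was 0.39, and in the other 5 fits it was 0.60 to 0.75. HMOX1 has 58.1% GC, and its level was highest in the library with the steepest GC slope; with a GC correction per library the rise with siARNT was 0.30 (adjusted p 0.019), the change with siARNT at 1% O2 was -0.31 (adjusted p 0.0107) and the interaction was -0.60 (adjusted p 0.00371). DESeq2 gave an interaction of -0.92 (adjusted p 0.0373).

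ME1 (ENSG00000065833.7, chr6:83210389-83431071, minus strand) encodes cytosolic malic enzyme, which makes NADPH from malate. It stood at 35.9, 32.2 and 33.0 CPM in normoxia siControl, 32.1, 27.6 and 31.8 in normoxia siARNT, 25.8, 25.1 and 24.8 in hypoxia siControl and 35.5, 31.1 and 26.5 in hypoxia siARNT. The hypoxia siControl libraries were the lowest of the 12. ME1 fell 1.34-fold with hypoxia in siControl (log2 fold change -0.42, SE 0.101, adjusted p 0.0098), and its change in siARNT was 0.02 (95% interval -0.20 to 0.24, adjusted p 0.91). At 1% O2 it rose 1.23-fold with siARNT (0.30, SE 0.101, adjusted p 0.0449), and the interaction was 0.44 (SE 0.143, adjusted p 0.105). Without normoxia siControl A the fall with hypoxia was -0.36 with an adjusted p of 0.0502. The rise with siARNT lost its call in 10 of 12 fits that left out 1 library (adjusted p 0.0551 to 0.182), all but those without normoxia siARNT B or hypoxia siARNT C, and without hypoxia siARNT A it was 0.19. It was also lost with RLE scaling, DESeq2, no filter on low counts and only the libraries compared (adjusted p 0.0523 to 0.0609). The ME1 interaction passed with total count scaling (0.49, adjusted p 0.0365), with the GC correction (0.32, adjusted p 0.00748) and without hypoxia siARNT C (0.54, adjusted p 0.0258).

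**Figure D3:**
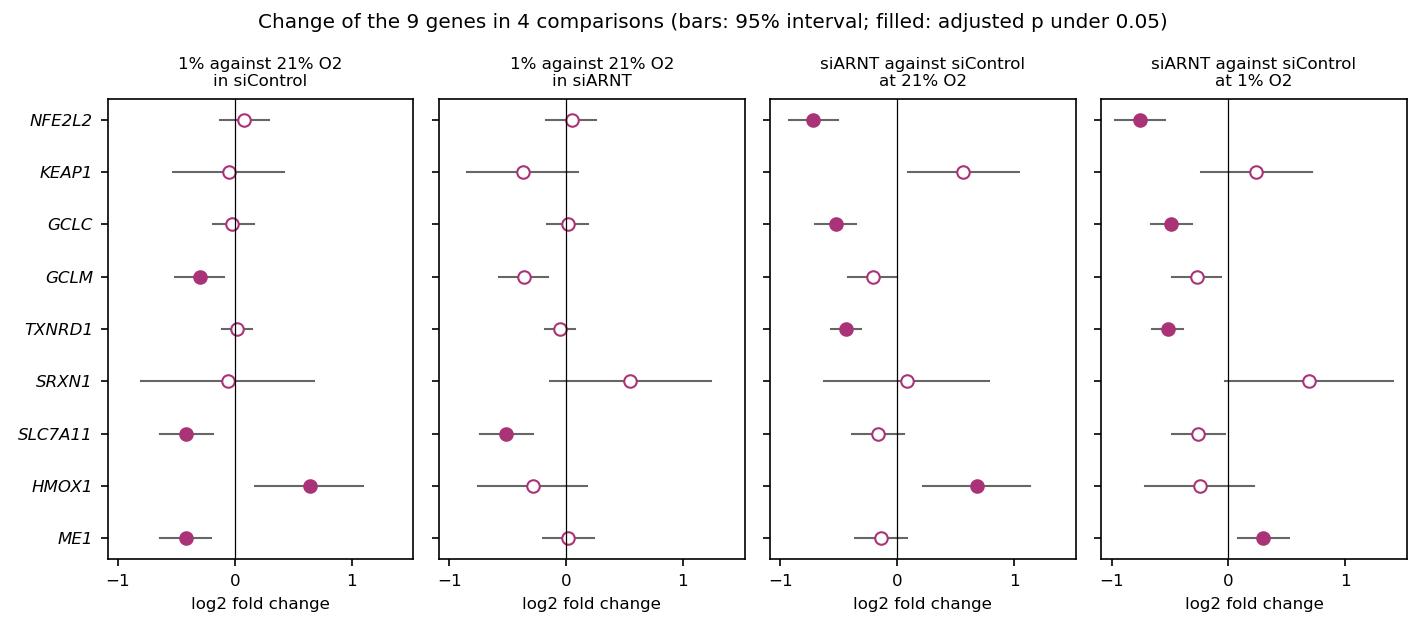
Log2 fold change of the 9 genes (x axis) in 4 comparisons, 1 panel each, with 95% intervals as bars; filled circles passed an adjusted p of 0.05. NFE2L2, GCLC and TXNRD1 are filled and below 0 in both siARNT panels, and their intervals in both oxygen panels include 0.

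Counted over the 9 genes, hypoxia in siControl called 4 (HMOX1 higher; GCLM, SLC7A11 and ME1 lower), against 25.3% of all 16999 genes tested (10.4% higher, 14.9% lower). The same 4 genes were those whose groups did not overlap, as 46.8% of all genes did not. The median log2 fold change of the 9 was -0.05, against 0.02 for all genes. Without normoxia siControl A none of the 4 passed. Hypoxia in siARNT called SLC7A11 alone, against 4.09% of all genes (2.21% higher, 1.89% lower), with medians of -0.05 and -0.04; groups did not overlap for GCLM and SLC7A11, and for 22.2% of all genes. With siARNT at 21% O2, 4 were called (NFE2L2, GCLC and TXNRD1 lower; HMOX1 higher), against 20.2% of all genes, with medians of -0.16 and 0.01; groups did not overlap for 7 of the 9 genes and for 46.5% of all genes. At 1% O2 siARNT called 4 (NFE2L2, GCLC and TXNRD1 lower; ME1 higher), against 29.1% of all genes, with medians of -0.26 and 0.02; groups did not overlap for 7 of the 9 genes and for 40.3% of all genes. The interaction called 0 of the 9 by edgeR, against 4.69% of all genes (2.49% higher, 2.19% lower); 2 of the 9 had an unadjusted p under 0.05 (HMOX1 0.00972 and ME1 0.00947), and DESeq2 called 1, HMOX1. The NFE2L2, GCLC and TXNRD1 calls with siARNT held in each alternative fit that tests siARNT, the 12 without 1 library included. A block by well does not test it, because each well received 1 siRNA.

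NFE2L2, GCLC and TXNRD1 also followed one another from library to library, as a description over 12 libraries that share the siRNA groups and the GC slopes. Pearson's r of log2 CPM was 0.99 between NFE2L2 and TXNRD1, 0.98 between NFE2L2 and GCLC and 0.98 between GCLC and TXNRD1. GCLM and SLC7A11 had an r of 0.95. HMOX1 and ME1 had an r of -0.73, and KEAP1 and NFE2L2 of -0.75. By the range of the group means of log2 CPM, NFE2L2 (0.81), SLC7A11 (0.67) and HMOX1 (0.64) varied most. Among the 9855 genes that averaged 5 CPM or more, the 3 most like NFE2L2 were GDA (r 0.996), CCNG1 (0.995) and EIF2A (0.995). For SLC7A11 they were FGF2 (0.972), DLAT (0.957) and MRPL42 (0.949), and for HMOX1 PPP1R26 (0.979), SOX13 (0.979) and TNIP1 (0.975).

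The partners and regulators of NRF2 form a list of 16 genes, all tested. With siARNT the largest called changes were those of BACH1, the repressor that competes with NRF2 at antioxidant response elements. BACH1 stood at 586, 549 and 562 CPM in normoxia siControl, 374, 328 and 403 in normoxia siARNT, 873, 791 and 834 in hypoxia siControl and 433, 388 and 374 in hypoxia siARNT. The groups did not overlap except that the 2 siARNT groups did. BACH1 rose with hypoxia in siControl (log2 fold change 0.56, SE 0.081, adjusted p 0.000434) and fell with siARNT at 21% O2 (-0.62, SE 0.081, adjusted p 0.000412) and at 1% O2 (-1.06, SE 0.082, adjusted p 2.51e-06). In siARNT its change with hypoxia was 0.11 (adjusted p 0.453), and the interaction was -0.44 (adjusted p 0.0495), a call lost in 11 of 12 fits without 1 library (adjusted p 0.0636 to 0.149), the exception being normoxia siARNT B.

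With hypoxia in siControl, 4 of the 16 rose (BACH1, MAFF, MAFK and CREBBP) and 1 fell (PGAM5), against 10.4% higher and 14.9% lower among all genes, with a median of 0.04. The small MAF genes encode the DNA-binding partners of NRF2 and of BACH1: MAFF rose by 0.37 (adjusted p 0.0151) and MAFK by 0.69 (adjusted p 0.0258), and both calls were lost without normoxia siControl A or C or hypoxia siControl B (adjusted p 0.0566 to 0.109). PGAM5, a mitochondrial phosphatase that binds KEAP1, fell by 0.71 on the log2 scale (adjusted p 0.00133), and CREBBP, a coactivator, rose by 0.30 (adjusted p 0.00382). With hypoxia in siARNT none of the 16 passed, against 4.09% of all genes. With siARNT at 21% O2, RBX1, the RING subunit of the ligase that degrades NRF2, rose by 0.55 (adjusted p 0.00027) and BTRC, which serves a second route of NRF2 degradation, by 0.45 (adjusted p 0.00484), beside the fall of BACH1, against 9.42% higher and 10.8% lower among all genes; the median was 0.21. At 1% O2, RBX1 (0.44, adjusted p 0.000497), BTRC (0.46, adjusted p 0.00202) and NFE2L3 (0.63, adjusted p 0.017) rose, while BACH1, MAFF (-0.33, adjusted p 0.0256) and CREBBP (-0.26, adjusted p 0.00817) fell, with a median of 0.04 (all genes 14.4% higher, 14.7% lower). The NFE2L3 call was lost without hypoxia siControl A or B or hypoxia siARNT A, and the MAFF call without hypoxia siControl A or B or hypoxia siARNT A or B (adjusted p 0.0659 to 0.0798).

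The detoxification genes linked to NRF2, 22 listed and 21 tested, include the quinone reductase NQO1 and the aldo-keto reductases. The list was drawn up by known links to NRF2, and whether NRF2 or another factor moved its genes was not tested. With siARNT, 11 of 21 fell and 2 rose at 21% O2, and 11 fell and 2 rose at 1% O2, against 10.8% lower and 9.42% higher among all genes at 21% O2 and 14.7% and 14.4% at 1% O2. Their median log2 fold change was -0.25 and -0.24. With hypoxia in siControl 4 fell and 1 rose, against 14.9% lower and 10.4% higher among all genes. In siARNT none of the 21 passed, against 4.09% of all genes. NQO1 stood at 678, 662 and 660 CPM in normoxia siControl, 466, 436 and 449 in normoxia siARNT, 643, 630 and 653 in hypoxia siControl and 457, 445 and 436 in hypoxia siARNT. The siARNT libraries lay below the siControl libraries throughout, with log2 fold changes of -0.57 (SE 0.048, adjusted p 1.72e-05) at 21% O2 and -0.53 (SE 0.048, adjusted p 9.88e-06) at 1% O2.

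AKR1C1, which reduces steroids and aldehydes, stood at 375, 325 and 337 CPM in normoxia siControl, 180, 167 and 161 in normoxia siARNT, 415, 487 and 339 in hypoxia siControl and 180, 166 and 150 in hypoxia siARNT. It fell by 1.03 (adjusted p 0.000149) and by 1.32 (adjusted p 8.29e-06) on the log2 scale with siARNT at 21% and 1% O2. Its near copy AKR1C2 fell by 1.01 (adjusted p 0.000414) and by 1.35 (adjusted p 1.86e-05), and reads may be split between the 2. AKR1B10, at 3.92 to 11.8 CPM, fell by 1.26 at 21% O2 (adjusted p 0.000282) and by 0.76 at 1% O2 (adjusted p 0.00355). UGT1A6, which shares exons with its gene cluster and held at most 1.03 CPM, fell by 1.14 (adjusted p 0.00839) and by 1.53 (adjusted p 0.000858). AKR1C3 (-0.54 and -0.61), UGDH (-0.69 and -0.58) and TRIM16L (-0.61 and -0.49) also fell at both oxygen levels. The genes that rose were ABCC2 (0.25) and NQO2 (0.32) at 21% O2 and ABCC2 (0.39) and PIR (0.25) at 1% O2. Of the 13 calls at each level, 9 at 21% O2 and 10 at 1% O2 held in all 12 fits without 1 library; the others were NQO2, ABCC2, ABCC3 and PTGR1 at 21% O2 and ALDH3A1, PIR and PTGR1 at 1% O2.

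**Figure D4:**
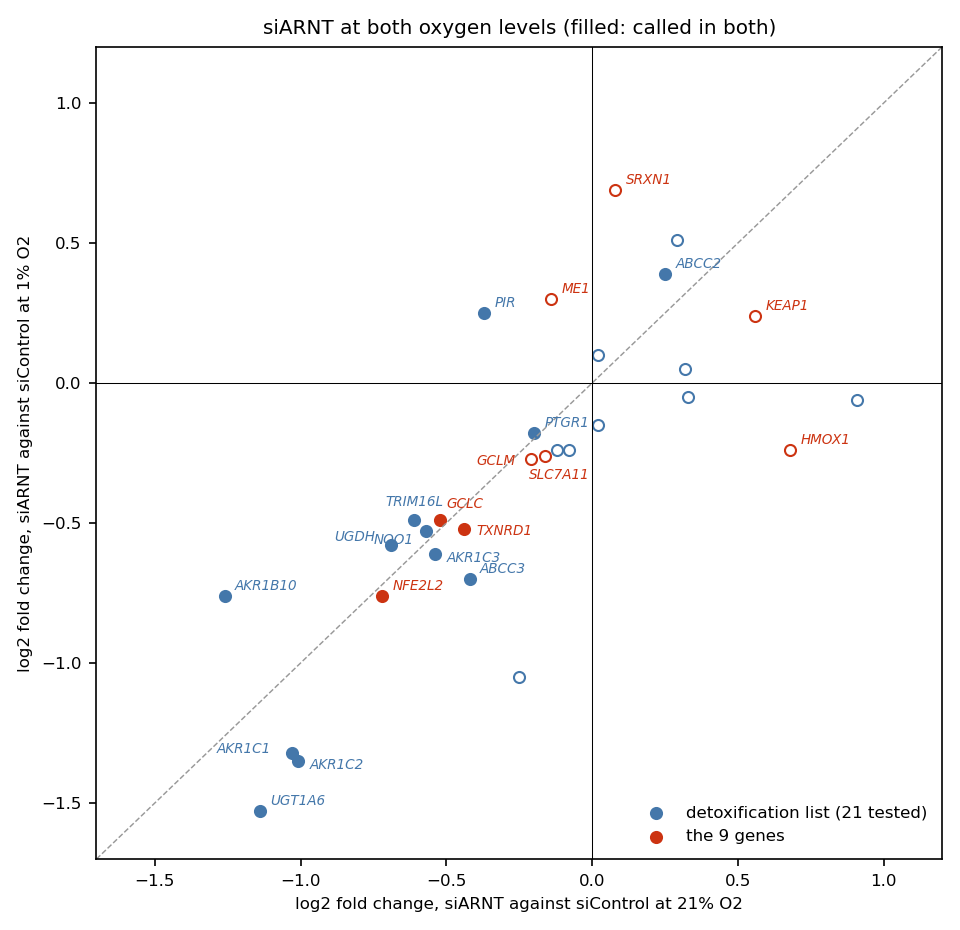
Log2 fold change with siARNT at 21% O2 (x axis) and at 1% O2 (y axis) of the 9 genes (red) and the 21 detoxification genes tested (blue); filled points were called in both comparisons, which share no library but come from the same transfected wells, and the dashed line marks equal change. NFE2L2, GCLC and TXNRD1 lie at the lower left with NQO1 and the aldo-keto reductases, while PIR is called with opposite signs.

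PIR, a nuclear protein whose gene is an NRF2 target, was the 1 detoxification gene with a called interaction (0.62, SE 0.112, adjusted p 0.01). It stood at 20.1, 19.4 and 20 CPM in normoxia siControl, 16.7, 14.4 and 14.8 in normoxia siARNT, 12.8, 12.4 and 13.5 in hypoxia siControl and 15.8, 15.6 and 14.7 in hypoxia siARNT. The hypoxia siControl libraries were the lowest and the normoxia siControl libraries the highest. PIR fell by 0.62 on the log2 scale with hypoxia in siControl (adjusted p 0.000184), and its change in siARNT was 0.01 (adjusted p 0.978). The other calls with hypoxia in siControl were AKR1B10 (-0.48), CBR1 (-0.33), ABCC2 (-0.25) and ABHD4 (0.44), of which ABCC2 held in all 12 fits. AKR1B10 and CBR1 lost their calls without any 1 normoxia siControl library, hypoxia siControl A or C, or hypoxia siARNT B, and ABHD4 without normoxia siControl A or C or hypoxia siControl A or B (adjusted p 0.0522 to 0.153).

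**Figure D5:**
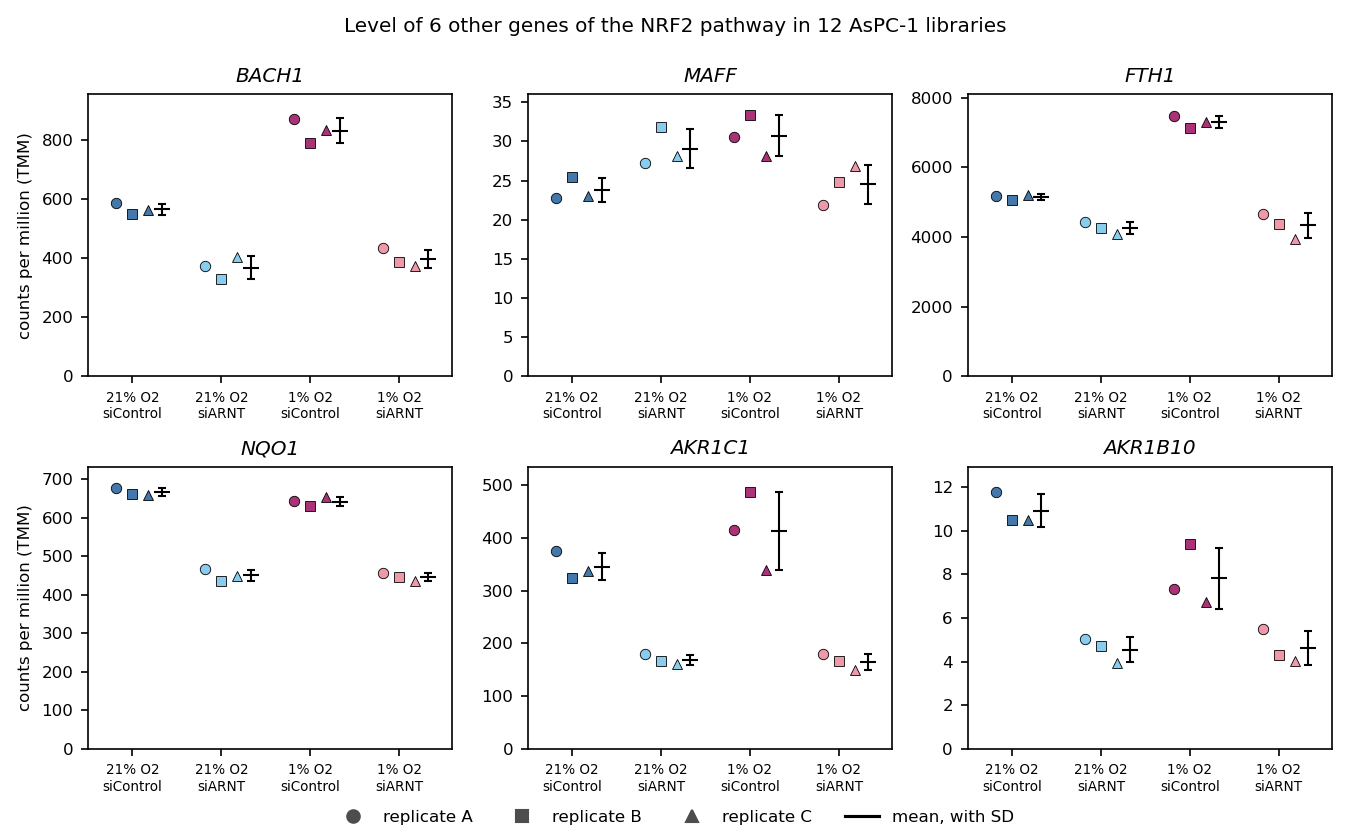
Level (CPM, linear axes from 0) of BACH1, MAFF, FTH1, NQO1, AKR1C1 and AKR1B10 in each of the 12 libraries, by group on the x axis; symbols are replicates A, B and C with the mean and SD (n = 3) beside them. BACH1 and FTH1 are highest in hypoxia siControl, and NQO1 and AKR1C1 separate by siRNA at both oxygen levels.

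Of the 17 other glutathione genes, 16 were tested. With hypoxia in siControl 6 fell and 1 rose, against 14.9% lower and 10.4% higher among all genes, with a median of -0.22. Those that fell include GSTA4 (-0.65, adjusted p 0.0108), GPX2 (-0.53, adjusted p 0.0426), MGST1 (-0.38, adjusted p 0.00753) and GSTO1 (-0.36, adjusted p 0.000642). GSR, glutathione reductase, fell by 0.22 (adjusted p 0.00473), SLC3A2, the partner chain of SLC7A11, by 0.33 (adjusted p 0.0473), and MGST3 rose by 0.19 (adjusted p 0.0241). The MGST1, GSTO1 and GSR calls held in all 12 fits without 1 library, and without normoxia siControl A the other 4 were lost, GSTA4 with -0.55 (adjusted p 0.0602). In siARNT none passed, against 4.09% of all genes, with a median of -0.29. With siARNT at 21% O2, 4 rose (GPX4, CHAC1, GSTA4 and SLC3A2) and 2 fell (GPX2 by 0.79, adjusted p 0.00922, and MGST1 by 0.39, adjusted p 0.0104), against 9.42% higher and 10.8% lower among all genes, with a median of 0.28. All 4 rises were lost in 6 or 7 of the 12 fits without 1 library, and without normoxia siARNT B, whose GC slope is the steepest, GPX4 went from 1.03 to 0.61 (adjusted p 0.128) and CHAC1 from 0.91 to 0.57 (adjusted p 0.135). At 1% O2, GSTA4 rose by 1.23 (adjusted p 0.000137), GPX2 fell by 0.75 (adjusted p 0.00748), and SLC3A2 (0.36), GSR (0.18) and GSTO1 (0.17) rose, with a median of 0.17 (all genes 14.4% higher, 14.7% lower); the last 3 calls were lost without hypoxia siControl A, among 2 to 9 of the 12 fits (adjusted p 0.0509 to 0.174).

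Of 15 other thioredoxin and peroxiredoxin genes, 14 were tested. With hypoxia in siControl 5 fell and none rose: TXNRD3 (-0.81, adjusted p 0.000378), GLRX2 (-0.53, adjusted p 0.00418), PRDX4 (-0.34, adjusted p 0.0148), TXN, which encodes thioredoxin (-0.31, adjusted p 0.0038), and PRDX1 (-0.17, adjusted p 0.0423), with a median of -0.08 over the list. Among all genes 14.9% fell and 10.4% rose. The PRDX4 and PRDX1 calls were lost in 4 and 10 of the 12 fits without 1 library, normoxia siControl A and C and hypoxia siControl A and B among them. In siARNT none of the 14 passed, against 4.09% of all genes. With siARNT the mitochondrial peroxiredoxin PRDX3 fell by 0.39 at 21% O2 (adjusted p 0.00137) and by 0.38 at 1% O2 (adjusted p 0.000607). PRDX6 fell by 0.19 (adjusted p 0.0193) and 0.28 (adjusted p 0.00112), PRDX1 by 0.18 at 21% O2 (adjusted p 0.0394) and GLRX by 0.21 at 1% O2 (adjusted p 0.0311), and TXN rose by 0.27 at 1% O2 (adjusted p 0.00816). The list thus had 3 lower at 21% O2 (10.8% of all genes) and 3 lower and 1 higher at 1% O2 (14.7% and 14.4% of all genes), with medians of -0.04 and 0.11. The PRDX6 and PRDX1 calls at 21% O2 were lost without any 1 normoxia siControl library or normoxia siARNT C, and GLRX without hypoxia siControl A or C or hypoxia siARNT B or C (adjusted p 0.0507 to 0.119).

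Among the 12 other genes of NADPH supply, 3 fell with hypoxia in siControl, against 14.9% of all genes, with a median of -0.07. ME2, the mitochondrial malic enzyme and thus the counterpart of ME1, stood at 41.9, 40.2 and 39.2 CPM in normoxia siControl, 36.3, 32.8 and 37.1 in normoxia siARNT, 25.1, 20.9 and 28.3 in hypoxia siControl and 37.6, 34.6 and 30.7 in hypoxia siARNT. As for ME1, the hypoxia siControl libraries were the lowest of the 12. ME2 fell by 0.71 (adjusted p 0.000578), MTHFD1, of the folate route, by 0.57 (adjusted p 1.35e-05) and PGD, of the pentose phosphate route, by 0.46 (adjusted p 0.0342, lost without any 1 normoxia siControl library or hypoxia siControl A or C). In siARNT, MTHFD1 (-0.26, adjusted p 0.0198) and PGD (-0.60, adjusted p 0.0423) fell, against 1.89% of all genes. These calls were lost in 6 and 10 of the 12 fits, those without hypoxia siARNT A or B among them. At 1% O2 with siARNT, the genes that rose were ME2 (0.47, adjusted p 0.0062), NNT (0.30, adjusted p 0.00207) and MTHFD1 (0.29, adjusted p 0.00112), against 14.4% of all genes, and at 21% O2 (9.42% of all genes) the 2 calls, IDH2 (0.62) and NNT (0.18), were lost in 6 and 10 of the 12 fits, those without any 1 normoxia siControl library among them.

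Of 9 genes of heme and ferritin, 1 rose and 3 fell with hypoxia in siControl (10.4% and 14.9% of all genes), 2 rose and 1 fell with siARNT at 21% O2 (9.42% and 10.8%) and 4 rose and 1 fell at 1% O2 (14.4% and 14.7%). FTH1, the ferritin heavy chain that stores iron, stood at 5170, 5050 and 5210 CPM in normoxia siControl, 4420, 4250 and 4090 in normoxia siARNT, 7460, 7140 and 7300 in hypoxia siControl and 4660, 4380 and 3950 in hypoxia siARNT. It was highest in the hypoxia siControl libraries, and the 2 siARNT groups overlapped. FTH1 rose with hypoxia in siControl (0.50, adjusted p 0.000162), fell with siARNT at 21% O2 (-0.27, adjusted p 0.0116) and at 1% O2 (-0.75, adjusted p 4.92e-06), and had an interaction of -0.48 (adjusted p 0.0124). The call at 21% O2 was lost with no filter on low counts (adjusted p 0.0659), and processed copies of FTH1 leave its level uncertain. With hypoxia in siControl FLVCR1 (-0.49), HMOX2 (-0.46) and BLVRA (-0.38), which encode a heme exporter, heme oxygenase 2 and biliverdin reductase, fell; the HMOX2 call was lost without any 1 normoxia siControl library or hypoxia siControl A or C (adjusted p 0.0674 to 0.102). With siARNT HMOX2 rose by 0.61 at 21% O2 (adjusted p 0.0117) and 0.69 at 1% O2 (adjusted p 0.00317), and SLC48A1, a heme transporter, by 0.64 (adjusted p 0.0138) and 0.75 (adjusted p 0.0032). Without normoxia siControl C both calls at 21% O2 were lost (0.57, adjusted p 0.0517, and 0.60, adjusted p 0.0623), and without normoxia siControl A that of SLC48A1 was (adjusted p 0.0638). At 1% O2 BLVRA (0.40) and FLVCR1 (0.29) rose as well. In siARNT FECH fell with hypoxia by 0.37 (adjusted p 0.0335), the 1 call of 9 there, against 4.09% of all genes. The FLVCR1 and FECH calls were lost in 8 and 9 of the 12 fits, those without normoxia siControl A or C or hypoxia siARNT A or B among them.

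The remaining lists were the superoxide and peroxide enzymes, 6 of 8 tested, and the targets of ATF4, 14 of 16 tested, a factor that also controls SLC7A11. With siARNT, MSRA, which repairs oxidised methionine, rose by 0.53 at 21% O2 (adjusted p 0.000309) and by 0.73 at 1% O2 (adjusted p 9.86e-06), and it fell with hypoxia in siControl by 0.24 (adjusted p 0.0205), a call lost without any 1 normoxia siControl library or hypoxia siControl C. CAT, which encodes catalase, rose with hypoxia in siControl by 0.24 (adjusted p 0.00309). MSRA and CAT were the 2 calls of 6 there, against 14.9% lower and 10.4% higher among all genes. At 21% O2 siARNT also called MSRB1 (1.04), PON2 (-0.32) and SOD1 (-0.21), each lost without normoxia siControl A or C or normoxia siARNT B (adjusted p 0.0509 to 0.162). With MSRA, 2 of 6 were higher and 2 lower, against 9.42% and 10.8% of all genes. At 1% O2 MSRA was the 1 call with siARNT, against 29.1% of all genes. With hypoxia in siARNT 0 of 6 passed, against 4.09% of all genes. Of the ATF4 targets, 4 fell with hypoxia in siControl, PSAT1 (-1.36, adjusted p 6.09e-07), ASNS (-0.80, adjusted p 2.65e-05), XPOT (-0.57, adjusted p 0.00223) and MTHFD2 (-0.40, adjusted p 0.00272), and DDIT4 rose (1.45, adjusted p 3.57e-05), against 14.9% lower and 10.4% higher among all genes. In siARNT PSAT1 (-0.65, adjusted p 0.00207) and ASNS (-0.55, adjusted p 0.00453) fell with hypoxia. The other 12 of the 14 were not called, and among all genes 1.89% fell and 2.21% rose. Whether ATF4 moved SLC7A11 was not tested. With siARNT at 1% O2, PSAT1 rose by 0.90 (adjusted p 6.51e-06), while DDIT4 fell by 1.11 (adjusted p 0.000139) and ATF4 itself by 0.24 (adjusted p 0.0119). Among all genes 14.4% rose and 14.7% fell there. At 21% O2 the calls were SLC1A5 (0.72) and ASNS (-0.29), against 9.42% higher and 10.8% lower among all genes. Both were lost without any 1 normoxia siControl library or normoxia siARNT B (adjusted p 0.0548 to 0.157). ATF4 stood at 0.08 with hypoxia in siControl (log2 fold change, adjusted p 0.384) and at -0.22 in siARNT (adjusted p 0.07).

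Splicing of the members was read from the deposited exon skips, alternative 5′ and 3′ splice sites and multiple exon skips, of which 50 events in 7 of the 9 genes had enough reads. None of their 250 tests was called (limma on the log2 ratio of inclusion to exclusion reads, lowest adjusted p 0.253), and 26 (10.4%) had an unadjusted p under 0.05, against 6.55% over all events. These tests are not independent, because comparisons share libraries and some events share reads, so nothing is concluded from the difference in share. With precision weights, added after seeing the data, 36 had an unadjusted p under 0.05 and none was called. Without normoxia siControl B 2 tests were called and without hypoxia siARNT A 1. The exon skip of NFE2L2 had an inclusion share of 97.7, 96.1 and 96.8% in normoxia siControl, 92.5, 88 and 94.5% in normoxia siARNT, 96.5, 95 and 96.8% in hypoxia siControl and 94.6, 90.5 and 84.7% in hypoxia siARNT. The siARNT shares lay below the siControl shares at each oxygen level, on 80 skipping reads in normoxia siARNT and 63 in hypoxia siARNT. Its log2 ratio differed by -1.42 at 21% O2 (SE 0.464, adjusted p 0.513, limma) and by -1.35 at 1% O2 (SE 0.464, adjusted p 0.455, limma), which does not pass the threshold. The lowest adjusted p was that of the most covered exon skip of GCLC, included at 99.6, 99.8 and 99.6% in normoxia siControl, 98.6, 99.6 and 99.1% in normoxia siARNT, 99.1, 98.5 and 99.1% in hypoxia siControl and 99.8, 99.7 and 100% in hypoxia siARNT. Its log2 ratio differed with siARNT by 2.13 at 1% O2 (SE 0.476, adjusted p 0.253, limma) and by -1.18 at 21% O2 (SE 0.476, adjusted p 0.618, limma), with an interaction of 3.32 (SE 0.673, adjusted p 0.339, limma). These rest on 8, 17, 21 and 2 skipping reads in the 4 groups in the same order. In the most covered exon skips of TXNRD1, GCLC, SLC7A11 and KEAP1, the mean inclusion share lay between 95.6 and 99.8% in each group. In ME1 it lay between 92.2 and 97.1% and in GCLM between 1.9 and 3.7%.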

How the data were processed

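Stranded poly(A) RNA-seq of 12 AsPC-1 libraries was used. The authors deposited raw read counts per gene ID, and, per the file headers, inclusion and exclusion read counts and an inclusion fraction for each splicing event. STAR 2.4.2a, Trimmomatic and GRCh38.p10 are named in the submitters' processing notes; the counting tool, its settings and the build of the event positions are not given in the sources used here. Symbols came from a reference list of gene names (51996 of 57820 gene IDs), and gene models and GC content from GENCODE 29. The GC content of a gene is that of its longest transcript. Reads that named no gene (22.71 to 25.2% of each library) were left out of library sizes.

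Genes were tested with edgeR 4.0.16 in R 4.3.3: TMM scaling, the default filter on low counts (16999 genes kept), 1 mean per group over all 12 libraries, robust quasi-likelihood test, Benjamini-Hochberg adjustment over all genes, call under an adjusted p of 0.05. Events with a mean of at least 20 reads in each group were tested with limma 3.58.1 on log2 ratios with a pseudocount of 0.5. Alternatives were other scalings, DESeq2 1.42.0, no filter, and replicate letter or transfected well as a block. Further ones were a GC correction per library, only the libraries compared, and leaving out each library. Of the tested genes that averaged 5 CPM or more, 98.9% have a GC value. The scripts were tested on simulated data.

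Same-letter libraries deviated together from their group means with hypoxia in siControl (r 0.51, 0.744 and 0.495 for A, B and C) and with siARNT at 21% O2 (0.703, 0.88 and 0.387), but not with hypoxia in siARNT (0.908, -0.122 and -0.851) or with siARNT at 1% O2 (0.677, -0.087 and -0.719). Within 1 siRNA, wells were divided between the oxygen levels, but that a letter marks 1 well is not stated. The block by well takes libraries of 1 siRNA with the same letter as 1 well, and it gives no test of siARNT. The highest r with another letter was 0.412, -0.518 and 0.412 for A, B and C with hypoxia in siControl. With siARNT at 21% O2 it was 0.76, -0.463 and 0.76, above the same-letter r for A and C. With hypoxia in siARNT it was 0.855, 0.928 and 0.928, and with siARNT at 1% O2 0.703, 0.844 and 0.844. Calls lost with that block thus rest on this reading of the letters. Named genes are the 9 members and ARNT, up to 4 called genes of each list with the largest change in each comparison, the 3 genes most like each of the 3 members that varied most, and the most covered event of each kind; further list genes (such as CREBBP, NFE2L3, NQO1, AKR1C3, UGDH, TRIM16L, ABCC2, NQO2, PIR, GSR and SLC3A2) were named after their values were seen. The members and lists were chosen with earlier results of these data known. TXNIP and SOD2 were not matched, and GPX3, AKR1B1, SOD3, PHGDH and VLDLR did not pass the filter.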

Additional observations from a re-analysis of the deposited data

Results flagged for a closer look

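Among the genes of the lists, 9 had a response to hypoxia that differed between siARNT and siControl by the interaction term of edgeR (adjusted p under 0.05). None of the 9 NRF2 genes did, against 4.69% of all genes. PIR (0.62), FTH1 (-0.48), DDIT4 (-1.35) and PSAT1 (0.70) kept this call in all 12 fits without 1 library. DDIT4, an inhibitor of mTORC1 that HIF is known to induce, stood at 35.8 to 41.1 CPM in normoxia siControl, 94.2 to 119 in hypoxia siControl, 40.9 to 53.0 in normoxia siARNT and 40.4 to 58.1 in hypoxia siARNT. PSAT1, of serine synthesis, stood at 30.5 to 33.7, 12.0 to 13.2, 34.4 to 38.0 and 21.3 to 24.4 CPM in the same order.

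MAFF (-0.62) lost its call without normoxia siControl A or C, hypoxia siControl A or B, or hypoxia siARNT A or B (adjusted p 0.0598 to 0.0926), and with the GC correction its interaction was -0.18 (adjusted p 0.638). BACH1 (-0.44) kept its call in 1 of the 12 fits, that without normoxia siARNT B. GSR (0.29), ME2 (0.66) and MTHFD1 (0.31) lost theirs in 9 of the 12 fits, those without any 1 normoxia siControl library among them. The parts of depth, GC slope and single libraries in these differences were not tested further.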

How the results depend on the processing

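The falls of NFE2L2, GCLC and TXNRD1 with siARNT kept direction and call in every alternative that tests siARNT. The well as a block does not test it, because each well received 1 siRNA. Each other member call was lost in at least 1 fit. Genes called with hypoxia in siControl numbered 4299, and 7253 with the GC correction and 7494 with that and the replicate block (members 4, and 7 with both), with 2873 to 5242 genes and 0 to 4 members without 1 library. With hypoxia in siARNT 696 became 3675 and 3926 by GC correction, 136 with the well as a block and 22 with only the libraries compared, and 129 to 707 without 1 library; members called went from 1 to 2 by DESeq2, 3 by GC correction with or without block, 0 with the well block or only the libraries compared, and 0 to 2 without 1 library. With siARNT at 21% O2, 3431 became 5520 and 5905 by GC correction, and 1571 to 4148 without 1 library (3 to 4 members). At 1% O2, 4948 became 7830 and 8094, with 8 members in both, and 3537 to 5847 genes and 3 to 7 members without 1 library. For the interaction, 797 became 1495 with total count scaling, 373 with the well block and 3137 and 3391 by GC correction, and 272 to 1188 without 1 library; members went from 0 to 1 with total count scaling, DESeq2 or no filter, 3 by GC correction and 0 to 1 without 1 library. The replicate block alone gave 4740, 862, 4732, 5425 and 960 genes, and beside KEAP1 with siARNT at 21% O2 it changed no call among the members. Splicing calls were 0 to 2 without 1 library. The share of calls that were higher moved with total count scaling from 53.9 to 65.8% (hypoxia in siARNT), 49.6 to 63.8% (siARNT at 1% O2) and 53.2 to 75.3% (interaction), and with no filter to 41.5% for the interaction.

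Changes of sign were confined to values that had not passed the threshold. By GC correction, GCLC stood at 0.06 with hypoxia in siControl and -0.01 in siARNT, ME1 at -0.01 with hypoxia in siARNT and 0.01 with siARNT at 21% O2, and SRXN1 at -0.07 there (-0.10 with the replicate block). Interactions by GC correction were 0.08 for KEAP1, -0.07 for GCLC and -0.02 for ARNT, and that of NFE2L2 was 0.01 with total count scaling. Without 1 library, with hypoxia in siControl KEAP1 ran from -0.20 to 0.02, GCLC from -0.05 to 0.04, TXNRD1 from -0.01 to 0.06 and SRXN1 from -0.17 to 0.11. With hypoxia in siARNT NFE2L2 ran from -0.03 to 0.15, GCLC from -0.05 to 0.07, HMOX1 from -0.43 to 0.00 and ME1 from -0.06 to 0.12, and with siARNT at 21% O2 SRXN1 from -0.40 to 0.35. Interactions ran from -0.12 to 0.07 for NFE2L2, -0.03 to 0.08 for GCLC and -0.20 to 0.01 for SLC7A11. The cause of these shifts was not tested. Depth limits SRXN1, at 16 to 37 reads per library.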
